A study of Mus musculus with 5 samples.

Results

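Sulfated glycosaminoglycans are long sugar chains built on core proteins, and the genes for the enzymes and transporters that build, sulfate and trim them were followed in cells of the mouse temporomandibular joint (TMJ) disc. The set holds 37 of the 27998 genes in the deposited count matrices. Its members were chosen by gene symbol for what their products do, and all 37 symbols were found. They were 5 genes of the shared linkage region, 16 of chondroitin and dermatan sulfate (6 that make the chain, 8 that sulfate it and 2 epimerases), 11 of heparan sulfate (3 that make the chain, 6 that modify it and 2 endosulfatases) and 5 that supply precursors.

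A chain starts with a short linkage sugar on a serine of a core protein. Addition of N-acetylgalactosamine then commits it to chondroitin sulfate, which becomes dermatan sulfate where an epimerase turns glucuronic into iduronic acid, and addition of N-acetylglucosamine commits it to heparan sulfate. In cartilage and fibrocartilage, chondroitin sulfate on large proteoglycans holds water against compression, dermatan sulfate on small proteoglycans lies along collagen fibrils, and heparan sulfate at the cell surface binds growth factors in a way that depends on where its sulfate groups are.

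Discs of wild type C57BL/6 mice were profiled by droplet single-cell RNA sequencing in 5 libraries, 1 per condition: untreated discs of mice aged 3 days (3 d), 3 weeks (3 w), 16 weeks and 78 weeks, and injured discs. The injured discs had been punctured with a needle at the anterior band when the mice were 5 weeks old and were collected 2 weeks later, at 7 weeks. The 3 d library was made from pups of both sexes and the study describes its older mice as males. The labels give the injured mice as wild type, whereas the study's account of the injury model names Myh11-CreER; Tm fl/- mice, which carry a tdTomato reporter. The study lists the Cre parent line as FVB and describes tamoxifen injections for such mice. No uninjured library of 7 weeks was among the 5, so that injury and age cannot be told apart from the injured library alone.

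Counts are of unique molecular identifiers (UMIs), each marking 1 captured transcript at its 3′ end, so that levels were not divided by gene length. The libraries held 31585993 to 125427849 UMIs, and the injured one was the shallowest, with a median of 3299 UMIs per kept cell against 7721 to 12496 in the others. Any pair of libraries had 19 to 39 cell barcodes in common. Levels are counts per 1e6 UMIs (CPM), summed within a library over the cells of each class. The classes were 3 stromal clusters with 41876 cells together and 1 synovial lining-like cluster with 936. In the stromal cells all 8 fibroblast markers had a mean of at least 5 CPM, while summed endothelial markers stayed between 12.9 and 33.8 CPM and macrophage markers between 23.6 and 116 CPM. The lining cluster held all 6 of its markers above that level, but their sum at 3 d was 4133 CPM against 48375 to 93380 in the other libraries, and tenocyte markers there summed to 1673 CPM against 464 to 917. In stromal cells the tenocyte markers summed to 692 CPM at 3 d and 987 to 1349 CPM in the other libraries. Erythroid markers in the lining cluster summed to 1720 CPM at 3 d, 1225 CPM after injury and at most 4.76 CPM in the rest. The 6 lining markers were also found in the stromal cells. There they summed to 225 CPM at 3 d, 2927 at 3 w, 7967 at 16 w, 12120 at 78 w and 3660 after injury. Their part in the differences between stages, and between lining and stromal cells, was not tested.

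With 1 library per condition no test between conditions was possible, and no p-value is given. Ratios of CPM carry exact 95% intervals that cover counting error only, not the spread between animals or preparations. A gene is called higher or lower when its ratio was past 2-fold, among genes with a mean of at least 5 CPM over the 5 libraries, which 9325 genes and 33 of the 37 members reached in stromal cells. The other 4 members were Chsy3, Chst7, Chst13 and Hs6st2.

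At 78 w, 11 of the 33 members were higher in stromal cells than at 3 d, where 14.5% of all genes were, and 6 were lower, where 12.8% of all genes were. The higher members were mostly enzymes of chondroitin and dermatan sulfate: 8 of their 13 measured genes were higher and 2 were lower, with a median ratio of 2.51 against 0.971 over all genes. None of the 10 heparan sulfate genes was higher and 2 were lower, with a median ratio of 0.75. The 6 lower genes include Xylt2, which reached the mean of 5 CPM only through its 3 d level and so had to differ, and without it they were 5. Among the 5 linkage genes 1 was higher, and B4galt7 and Xylt2 were lower, and among the 5 precursor genes 2 were higher and none was lower.

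The makeup of the stromal cells differed between the same libraries. Cluster 1, led by Ibsp, Cytl1, Chad and Col2a1, held 15.1% of stromal cells at 3 d and 59.3% to 69.2% in the others. Cluster 2, led by Coch, with Kera and Tnmd among its leading genes, held 44.5% at 3 d and 19.4% to 28.7% otherwise, and cluster 3, led by Pi16, Clec3b and Mfap4, held 40.5% and 8.64% to 11.9%. Over all stromal cells the 8 fibrochondrocyte markers summed to 694 CPM at 3 d and to 12199 to 18748 CPM in the others, 3 cell cycle markers to 153 CPM against 1.11 to 8.26 CPM, and 5 erythroid markers to 783 CPM against 2.03 to 140 CPM. How far cell cycle and erythroid transcripts take part in the differences was not tested. Ratios were also taken within each cluster. All 11 higher members had ratios above 1 in each of the 3 clusters and all 6 lower members had ratios below 1 in each. These members had been called on the sum of the same 3 clusters, so that this agreement was in part set in advance. Past 2-fold in every cluster were Csgalnact1, Chst15, Ust and Ugdh among the higher members and B4galt7 and Sulf2 among the lower, that is 4 and 2 of the 33 against 8.68% and 6.42% of all genes.

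**Figure D1:**
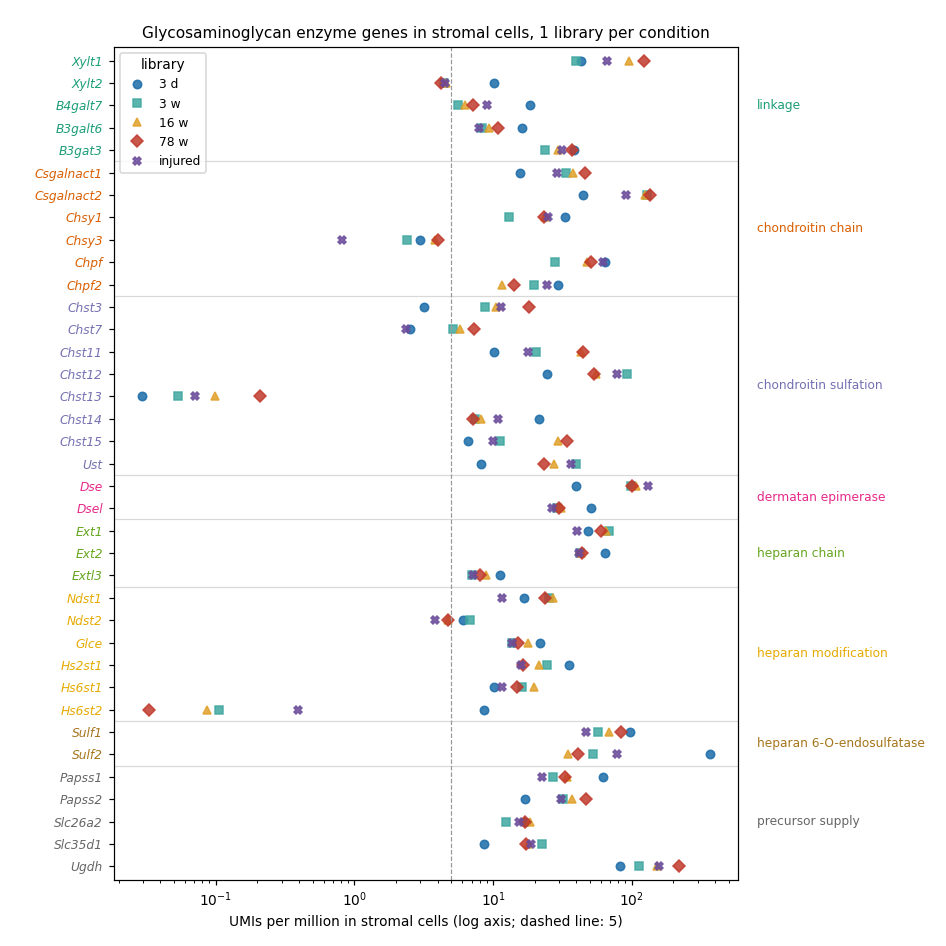
CPM of the 37 members in stromal cells of each of the 5 libraries, on a log axis, ordered by role, with a dashed line at 5. The 3 d points of Chst3, Chst11, Chst15 and Ust lie below those of the 4 other libraries, and the 3 d point of Sulf2 lies above them at 364 CPM.

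The linkage sugar begins with xylose, which Xylt1 or Xylt2 transfers to the core protein. Xylt1 stood at 43.4 CPM at 3 d, 39.4 at 3 w, 95.5 at 16 w, 122 at 78 w and 66.7 in the injured library. Both older libraries were above the younger ones, and the 78 w to 3 d ratio was 2.82 (95% interval 2.72 to 2.92). It was 2.21 in cluster 1, 1.1 in cluster 2 and 1.35 in cluster 3, and with equal weight for each cluster it was 1.66, under 2-fold. Xylt2 stood at 10.2 CPM at 3 d, 4.44 at 3 w, 4.57 at 16 w, 4.25 at 78 w and 4.52 after injury, with a 78 w to 3 d ratio of 0.415 (0.369 to 0.467). Of the UMIs of this pair, Xylt1 held 80.9% at 3 d (exact binomial interval 79.8% to 81.9%) and 96.6% at 78 w (96.3% to 97.0%).

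B4galt7, B3galt6 and B3gat3 add the next sugars, galactose by the first and second and glucuronic acid by the third. B4galt7 gave 18.6 CPM at 3 d, 5.58 at 3 w, 6.26 at 16 w, 7.16 at 78 w and 8.98 after injury, so that every later library was below 3 d. Its 78 w to 3 d ratio was 0.385 (0.352 to 0.421). B3gat3 ran from 23.9 CPM at 3 w to 38.1 CPM at 3 d, with 29.2 at 16 w, 37.3 at 78 w and 31.3 after injury. B3galt6 ran from 7.98 CPM after injury to 16.2 CPM at 3 d. Of the 5 linkage genes 4 had their highest level among the normal stages at 3 d, against 37.4% of all genes. Xylt1 had it at 78 w, against 11.5%. The 4 include Xylt2, which was measured only through its 3 d level, and B3gat3, at 38.1 CPM at 3 d against 37.3 CPM at 78 w.

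Csgalnact1 and Csgalnact2 add the first N-acetylgalactosamine, the step that commits a chain to chondroitin sulfate. Csgalnact1 stood at 15.7 CPM at 3 d, 33.4 at 3 w, 37.7 at 16 w, 46.1 at 78 w and 28.8 after injury. Csgalnact2 stood at 44.5, 128, 125 and 136 CPM at the 4 stages in turn and at 91.5 CPM after injury. Both were lowest at 3 d among the 5 libraries. Their 78 w to 3 d ratios were 2.92 (2.76 to 3.1) and 3.05 (2.94 to 3.15).

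Chsy1, Chsy3, Chpf and Chpf2 lengthen the chain by alternating its sugars. Chsy1 gave 32.8 CPM at 3 d, 13 at 3 w, 23.8 at 16 w, 23.4 at 78 w and 24.8 after injury. Chpf gave 64.7 CPM at 3 d, 28.0 at 3 w, 47.7 at 16 w, 51.2 at 78 w and 62.1 after injury. For both the 3 w library was the lowest and 3 d the highest, with 3 w to 3 d ratios of 0.398 (0.374 to 0.423) and 0.432 (0.414 to 0.451). Chpf2 gave 29.6, 19.6, 11.6 and 14.2 CPM at the 4 stages and 24.6 CPM after injury, with a 78 w to 3 d ratio of 0.482 (0.451 to 0.514). Chsy3 stayed at 0.819 to 4.01 CPM. The enzymes that start a chondroitin chain were thus higher at 78 w than at 3 d, while none of the measured ones that lengthen it was. Chsy3, which was not measured for calls, had a 78 w to 3 d ratio of 1.35.

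Among the 33 measured members, sulfotransferases held the 3 highest 78 w to 3 d ratios over all stromal cells, those of Chst3, Chst15 and Chst11. Under alternative processing these ratios ran from 2.8 to 6.64 for Chst3, 4.59 to 5.52 for Chst15 and 2.66 to 5.01 for Chst11. That of Ugdh ran from 2.15 to 3.4, a range that overlaps those of Chst3 and Chst11 but not that of Chst15. Of 8 chondroitin and dermatan sulfotransferase genes 6 were measured, of which 5 were higher at 78 w than at 3 d and 1 was lower, against 14.5% and 12.8% of all genes, with a median ratio of 3.54. Chst11 and Chst12, like Chst13, place sulfate on oxygen 4 of N-acetylgalactosamine in chondroitin. Chst11 stood at 10.1 CPM at 3 d, 20.3 at 3 w, 43.0 at 16 w, 44.5 at 78 w and 17.8 after injury, and its 78 w to 3 d ratio was 4.43 (4.13 to 4.74). Chst12 stood at 24.5 CPM at 3 d, 92.3 at 3 w, 55.7 at 16 w, 53.3 at 78 w and 79.0 after injury. Chst12 therefore peaked at 3 w whereas Chst11 was highest in the 16 w and 78 w libraries. The Chst12 78 w to 3 d ratio was 2.18 (2.08 to 2.29), or 1.77 with equal weight per cluster. Chst13 stayed at 0.0294 to 0.208 CPM.

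Chst3 and Chst7 place sulfate on oxygen 6 of the same sugar. Chst3 stood at 3.2 CPM at 3 d, 8.8 at 3 w, 10.5 at 16 w, 18.3 at 78 w and 11.4 after injury. Its 78 w to 3 d ratio, 5.72 (5.08 to 6.46), was the highest among the 33 measured members. It differed by cluster, at 3.92 in cluster 1, 1.95 in cluster 2 and 1.16 in cluster 3. Chst7 gave 2.52, 5.16, 5.74 and 7.29 CPM at the 4 stages and 2.35 CPM after injury, a mean of 4.61 CPM. Chst3 and Chst7 together held 14.2% of the UMIs of the 5 enzymes for oxygen 4 and 6 at 3 d (13.1% to 15.3%), against 11% at 3 w, 14.1% at 16 w and 12.4% after injury. At 78 w the share was 20.7% (20% to 21.5%). That share was above those of the other 4 libraries beyond counting error.

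Chst15 adds a further sulfate to N-acetylgalactosamine that already carries one, and Ust sulfates the uronic acid. Chst15 gave 6.59 CPM at 3 d, 11.3 at 3 w, 29.6 at 16 w, 34.0 at 78 w and 9.94 after injury. Ust gave 8.24 CPM at 3 d, 39.4 at 3 w, 27.6 at 16 w, 23.3 at 78 w and 36.5 after injury. Their 78 w to 3 d ratios were 5.15 (4.74 to 5.61) and 2.83 (2.61 to 3.07). Chst15 was high in the 16 w and 78 w libraries alone, whereas Ust was highest at 3 w.

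Dermatan sulfate genes lay on both sides. Dse, an epimerase that makes iduronic acid, gave 39.9 CPM at 3 d, 99.2 at 3 w, 107 at 16 w, 100 at 78 w and 132 after injury, with a 78 w to 3 d ratio of 2.51 (2.42 to 2.61). Dsel, the second epimerase, gave 51.2 CPM at 3 d, 28.9 at 3 w, 30.9 at 16 w, 30 at 78 w and 26.5 after injury. Dse accordingly held 43.8% of the UMIs of the pair at 3 d (42.8% to 44.8%) and 77.0% to 83.3% in the other libraries. Chst14, which sulfates oxygen 4 next to iduronic acid, gave 21.5 CPM at 3 d, 7.37 at 3 w, 8.26 at 16 w, 7.12 at 78 w and 10.8 after injury, and its 78 w to 3 d ratio was 0.332 (0.304 to 0.362).

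The windows before the transcription starts of these genes are shown for 5 that were higher and 1 that was lower at both later ages. They are the sulfation and epimerase members that passed 2-fold in the same direction at 3 w and at 78 w against 3 d and that have a single entry in the RefSeq promoter table (build GRCm38.p6). Chst3, Chst11, Chst12, Ust and Dse were the higher ones, and Chst14 was the lower one. Each window holds the 250 bases before the annotated start, read 5′ to 3′ on the strand of the gene. Capitals mark matches, on either strand, to any of 5 motifs. The GC box was searched as GGGCGG and the CCAAT box by its name. The TATA box was searched as TATAAA. The letters of the AP-1 motif were TGANTCA. Those of the SOX motif were ACAAAG. No matches overlap in these windows.
Chst3, chr10:60219261-60219510, minus strand: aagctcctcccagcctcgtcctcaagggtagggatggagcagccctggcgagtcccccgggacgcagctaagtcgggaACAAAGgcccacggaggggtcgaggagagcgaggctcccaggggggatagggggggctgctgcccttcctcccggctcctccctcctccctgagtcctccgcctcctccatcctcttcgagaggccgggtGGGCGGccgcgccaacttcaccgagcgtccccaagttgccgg
Chst11, chr10:82985247-82985496, plus strand: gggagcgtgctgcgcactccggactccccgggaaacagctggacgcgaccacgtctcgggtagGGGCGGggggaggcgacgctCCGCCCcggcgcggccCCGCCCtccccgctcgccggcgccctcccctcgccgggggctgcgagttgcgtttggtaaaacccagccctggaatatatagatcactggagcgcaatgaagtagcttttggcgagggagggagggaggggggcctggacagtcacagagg
Chst12, chr5:140505359-140505608, plus strand: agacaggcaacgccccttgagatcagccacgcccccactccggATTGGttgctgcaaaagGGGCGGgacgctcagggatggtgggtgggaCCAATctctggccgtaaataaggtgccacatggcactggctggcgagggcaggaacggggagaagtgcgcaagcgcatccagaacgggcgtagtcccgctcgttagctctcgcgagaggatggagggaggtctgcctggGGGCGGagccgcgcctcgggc
Ust, chr10:8518826-8519075, minus strand: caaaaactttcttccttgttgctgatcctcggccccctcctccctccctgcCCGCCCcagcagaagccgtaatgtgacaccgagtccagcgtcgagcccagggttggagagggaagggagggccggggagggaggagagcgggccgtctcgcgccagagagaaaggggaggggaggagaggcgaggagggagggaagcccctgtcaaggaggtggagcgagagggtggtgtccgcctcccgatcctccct
Dse, chr10:34207236-34207485, minus strand: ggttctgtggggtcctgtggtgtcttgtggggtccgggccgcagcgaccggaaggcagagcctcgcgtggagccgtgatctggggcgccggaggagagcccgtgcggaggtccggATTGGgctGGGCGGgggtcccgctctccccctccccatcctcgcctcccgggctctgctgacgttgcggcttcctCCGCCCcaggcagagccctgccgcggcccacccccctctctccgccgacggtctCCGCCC
Chst14, chr2:118926247-118926496, plus strand: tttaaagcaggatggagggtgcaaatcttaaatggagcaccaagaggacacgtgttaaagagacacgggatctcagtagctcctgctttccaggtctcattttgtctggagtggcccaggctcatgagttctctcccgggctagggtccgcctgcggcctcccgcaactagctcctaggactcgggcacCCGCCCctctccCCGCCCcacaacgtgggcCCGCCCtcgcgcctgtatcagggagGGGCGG

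All 6 windows held at least 1 GC box, with 4 matches in Chst14, 3 in Chst11 and Dse, 2 in Chst12 and 1 in Chst3 and Ust. A GC box was in 32.7% of all 32851 windows of the table. The 29 members with an entry had 36 windows, of which 24 held one (66.7%), among them 10 of the 12 windows of higher members and 4 of the 8 windows of lower members. A CCAAT box was in 14 of the 36 member windows (38.9%) and in 33.8% of all windows, here in Chst12 and Dse. A SOX motif was in the Chst3 window alone among the 36, against 16.5% of all windows, an AP-1 motif in 1 Csgalnact2 window against 6.75%, and a TATA box in 1 window each of Sulf2 and Hs6st2 against 12.4%. The G and C content of the 6 windows shown was 61.2% to 74.4%, and the median over all windows was 52.4%. As a check of placement, the 50 bases after each start were sought in GENCODE transcripts of the gene. They were found whole for 24 of the 36 member windows, and for the 6 shown except Chst11. Such matches describe the letters and say nothing of binding. Chsy3, Slc26a2, Ndst1, Ext1, Sulf1, Xylt1, Csgalnact1 and Extl3 had no entry.

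Ext1 and Ext2 form the polymerase of heparan sulfate, and Extl3 starts its chain. Ext1 gave 48.2 CPM at 3 d, 68.3 at 3 w, 65.1 at 16 w, 59.6 at 78 w and 40.6 after injury. Ext2 gave 64.0 CPM at 3 d, 42.4 at 3 w, 43.1 at 16 w, 43.6 at 78 w and 41.7 after injury. Ext1 was lowest after injury, and Ext2 was highest at 3 d. Extl3 stayed between 7.11 and 11.2 CPM, and none of the 3 passed 2-fold between stages.

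Ndst1 and Ndst2 remove acetyl groups and add sulfate to nitrogen, Glce epimerizes the uronic acid, and Hs2st1, Hs6st1 and Hs6st2 add sulfate to oxygen 2 or 6. Hs2st1 gave 35.6 CPM at 3 d, 24.5 at 3 w, 21.6 at 16 w, 16.5 at 78 w and 15.9 after injury. It was lower with each later stage, its 78 w to 3 d ratio was 0.462 (0.435 to 0.491), and with equal weight per cluster the ratio was 0.586, short of 2-fold. Ndst1 gave 16.8, 25.4, 27.3 and 23.7 CPM at the 4 stages and 11.7 CPM after injury. Ndst2 ran from 3.81 to 6.86 CPM, Glce from 13.7 to 21.7 CPM and Hs6st1 from 10.2 to 19.9 CPM. Hs6st2 had 882 UMIs at 3 d, a level of 8.63 CPM, and 0.106 CPM at 3 w, 0.0872 at 16 w, 0.0329 at 78 w and 0.392 after injury. Its ratio of 3 w to 3 d was 0.0123 (0.00633 to 0.0216), although its mean of 1.85 CPM left it out of the counts of members called.

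Sulf1 and Sulf2 are secreted endosulfatases that remove sulfate from oxygen 6 of heparan sulfate after it is made. Sulf2 gave 364 CPM at 3 d, 52.5 at 3 w, 34.5 at 16 w, 41.1 at 78 w and 78.9 after injury. Every later library was thus far below 3 d, with injury the nearest, and the 78 w to 3 d ratio was 0.113 (0.109 to 0.117). In clusters 1, 2 and 3 that ratio was 0.0753, 0.13 and 0.247. Sulf1 gave 97.7 CPM at 3 d, 57.4 at 3 w, 68.2 at 16 w, 84.2 at 78 w and 46.6 after injury. Of the UMIs of this pair, Sulf1 held 21.2% at 3 d (20.8% to 21.5%), 52.2% at 3 w, 66.4% at 16 w, 67.2% at 78 w (66.3% to 68.1%) and 37.1% after injury (35.5% to 38.7%).

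**Figure D2:**
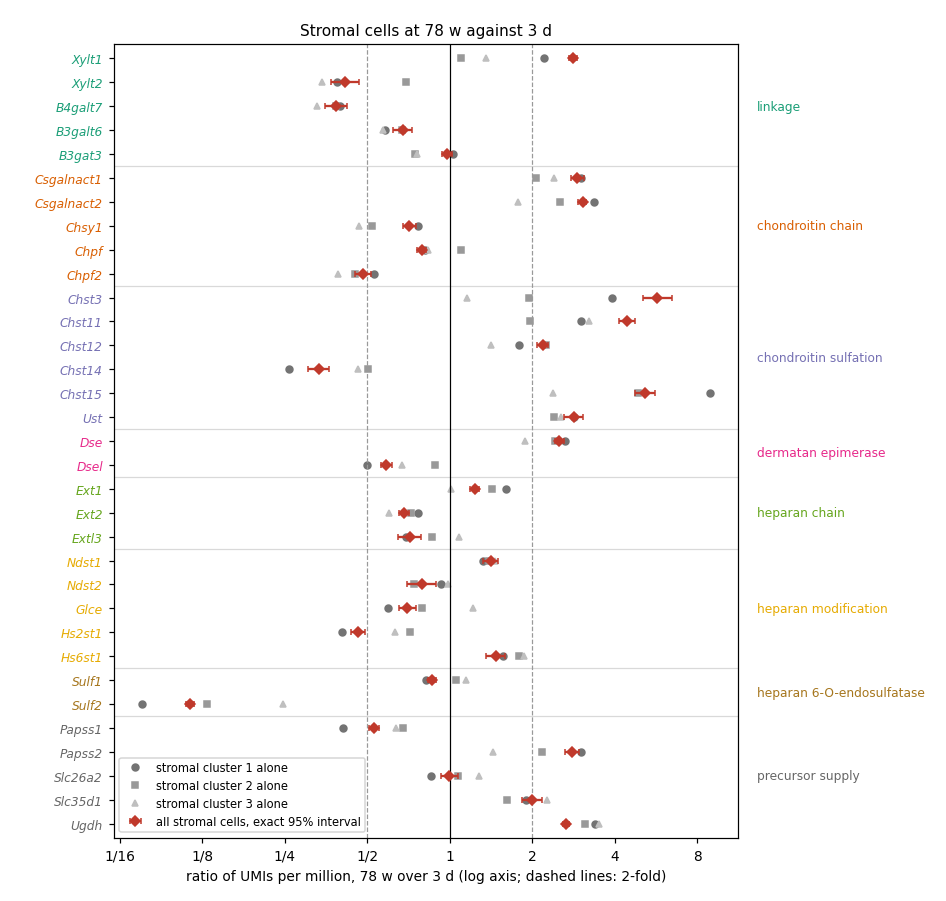
Ratio of CPM at 78 w to 3 d for the 33 measured members, on a log axis, in all stromal cells (red, with exact 95% intervals for counting error) and in each stromal cluster alone (grey). Of the chondroitin sulfation genes only Chst14 lies left of 1, and Sulf2 lies farthest left at 0.113.

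Sulfate is carried into the cell by Slc26a2 and activated by Papss1 or Papss2 into the donor that all sulfotransferases use. Papss1 gave 62.0 CPM at 3 d, 26.9 at 3 w, 34.0 at 16 w, 32.9 at 78 w and 22.5 after injury. Papss2 gave 16.9 CPM at 3 d, 32.1 at 3 w, 37.4 at 16 w, 47.0 at 78 w and 30.9 after injury. Papss1 was highest and Papss2 lowest at 3 d, with 78 w to 3 d ratios of 0.53 (0.508 to 0.554), short of 2-fold except under 2 alternatives, at the lowest 0.487, and 2.79 (2.64 to 2.95). The Papss2 share of the pair was 21.4% at 3 d (20.5% to 22.3%) and 52.4% to 58.9% in the other libraries. Slc26a2 stayed at 12.4 to 18.5 CPM.

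Ugdh makes the glucuronic acid donor for all these chains, and Slc35d1 carries such donors into the endoplasmic reticulum. Ugdh gave 82.8 CPM at 3 d, 112 at 3 w, 152 at 16 w, 220 at 78 w and 157 after injury. It was higher with each later stage, and the 78 w to 3 d ratio was 2.65 (2.59 to 2.72) and at least 3.12 within any of the 3 clusters. Slc35d1 gave 8.68 CPM at 3 d, 22.4 at 3 w, 18.0 at 16 w, 17.3 at 78 w and 18.8 after injury. Its ratio was 2.59 (2.39 to 2.79) for 3 w to 3 d and 1.99 (1.83 to 2.17) for 78 w to 3 d, just inside 2-fold and up to 2.06 under 2 alternatives.

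More members passed 2-fold between 3 d and 3 w than between later neighbouring stages. In that first step 8 of 33 members were higher, against 17.3% of all genes, and 7 were lower, or 6 without Xylt2, against 11.2%. Higher were Csgalnact1, Csgalnact2, Chst3, Chst11, Chst12, Ust, Dse and Slc35d1, and lower were Xylt2, B4galt7, Chsy1, Chpf, Chst14, Sulf2 and Papss1. Csgalnact1 and Chst11 were close to the limit, with ratios of 2.12 (2.0 to 2.25) and 2.02 (1.87 to 2.18), and under 3 and 5 of the alternatives in turn they were short of 2-fold, at the lowest 1.92 and 1.39. Chst3 went from a ratio of 2.75 (2.42 to 3.12) to 1.41 with equal weight per cluster, and was at 1.95, 0.97 and 0.659 in clusters 1, 2 and 3. With the same equal weight Chpf was at 0.572, short of 2-fold, and Ugdh at 2.09, past it, against 1.36 over all stromal cells. B3galt6 had a ratio of 0.519 and passed 2-fold under 3 alternatives, at the lowest 0.453. The median ratio of all genes in this step was 1.08, a log2 shift of 0.11. This comparison and that of 78 w share the 3 d library, so that their calls are not independent.

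Between 3 w and 16 w, 3 members were higher, against 3.56% of all genes, and none was lower, against 3.9%. They were Xylt1 with a ratio of 2.42 (2.34 to 2.52), Chst11 with 2.12 (2.01 to 2.23) and Chst15 with 2.63 (2.45 to 2.82). With equal weight per cluster Chst11 was at 1.87, short of 2-fold. Between 16 w and 78 w no member passed 2-fold, where 1.18% of all genes were higher and 0.611% lower. Over the 4 normal stages the highest level fell at 3 d for 16 of the 33 members, against 37.4% of all genes, at 3 w for 5, against 31.9%, at 16 w for 4, against 19.2%, and at 78 w for 8, against 11.5%. The 8 were Xylt1, Csgalnact1, Csgalnact2, Chst3, Chst11, Chst15, Papss2 and Ugdh. The 16 include Xylt2, which was measured only through its 3 d level. The 5 include Ndst2, whose mean was close to the limit of 5 CPM and under it without the 3 w library.

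Summed over genes, the 16 chondroitin and dermatan members gave 358 CPM in stromal cells at 3 d, 537 at 3 w, 568 at 16 w, 593 at 78 w and 558 after injury. The 11 heparan members gave 684 CPM at 3 d, 314 at 3 w, 311 at 16 w, 312 at 78 w and 272 after injury. The first sum was lowest and the second highest at 3 d. Their ratio within a library, which does not depend on scaling, was 0.524 at 3 d, with an interval of 0.517 to 0.53. It was 1.71 at 3 w (1.68 to 1.73), 1.83 at 16 w, 1.9 at 78 w (1.87 to 1.93) and 2.05 after injury (2 to 2.11). Sulf2 held much of the heparan sum at 3 d, and without Sulf1 and Sulf2 the heparan sum was 223, 205, 209 and 186 CPM at the 4 stages and 147 CPM after injury. Without them the ratio was 1.61 at 3 d (1.58 to 1.64), 2.62 at 3 w, 2.72 at 16 w, 3.18 at 78 w (3.12 to 3.23) and 3.81 after injury (3.68 to 3.94).

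At 3 d the ratio of the chondroitin to the heparan sum was 0.51, 0.504 and 0.544 in stromal clusters 1, 2 and 3. At 78 w it was 2.2 in cluster 1 (2.16 to 2.23), 1.55 in cluster 2 (1.5 to 1.6) and 1.02 in cluster 3 (0.975 to 1.06). After injury the 3 clusters were at 2.79, 1.76 and 0.897. The clusters were formed on the same cells, with the listed genes left out of the features, so that differences between clusters are descriptions.

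**Figure D3:**
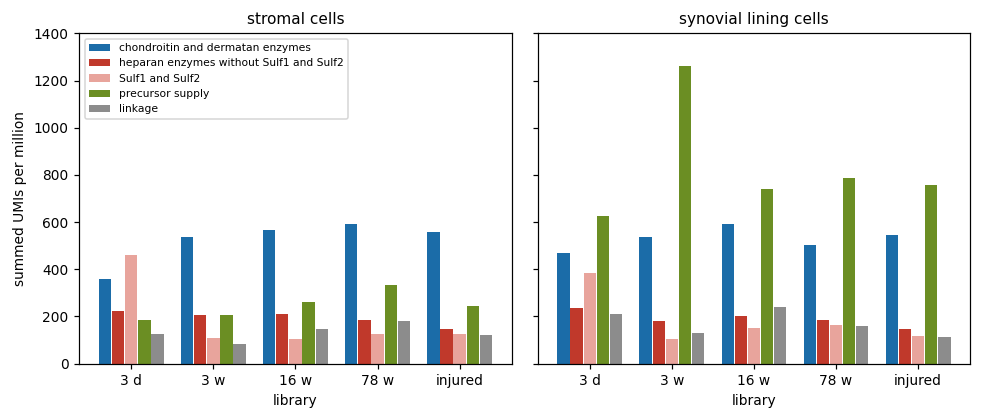
Summed CPM of the members by role in stromal cells (left) and synovial lining cells (right) of each library, 1 library per bar. In stromal cells the chondroitin and dermatan bar is 358 CPM at 3 d and 537 to 593 CPM in the others, and the bar of Sulf1 and Sulf2 is 461 CPM at 3 d and 103 to 125 CPM in the others.

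The injured library was compared with both 3 w and 16 w, the stages on either side of its age, and a member was called only when past 2-fold against both. No member was higher, against 2.98% of all genes, and 1 was lower, against 6.05%. That member was Ndst1, with ratios of 0.462 to 3 w (0.411 to 0.518) and 0.429 to 16 w (0.381 to 0.482). The median gene was also lower in this library, at log2 ratios of -0.31 to 3 w and -0.24 to 16 w. With scaling by the median gene, or with equal weight per cluster, Ndst1 no longer passed, at a geometric mean of the ratios of up to 0.538 against 0.445. Of the 33 members 10 lay above both neighbours, against 22.5% of all genes, and 16 below both, against 55.2%.

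Among heparan members 8 of 10 lay below both 3 w and 16 w in the injured library, against 55.2% of all genes. Sulf2 lay above both and Extl3 between them. Among chondroitin and dermatan members 6 of 13 lay above both, against 22.5% of all genes: Chsy1, Chpf, Chpf2, Chst3, Chst14 and Dse. Below both lay 5, against 55.2% of all genes: Csgalnact1, Csgalnact2, Chst11, Chst15 and Dsel. Sulf2 had ratios of 1.5 to 3 w (1.43 to 1.58) and 2.28 to 16 w (2.16 to 2.42). In cluster 3 these were 3.58 and 5.06, in cluster 2 1.76 and 3.46, and in cluster 1 0.676 and 0.955, and with equal weight per cluster Sulf2 was past 2-fold against both stages. Chst11 and Chst15 were at 0.414 (0.376 to 0.454) and 0.336 (0.296 to 0.381) of their 16 w levels, and at 0.876 and 0.883 of their 3 w levels. The age of the injured mice lay between those stages, and levels of both genes differed over 2-fold between them. How far age takes part in the injured levels was not tested.

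**Figure D4:**
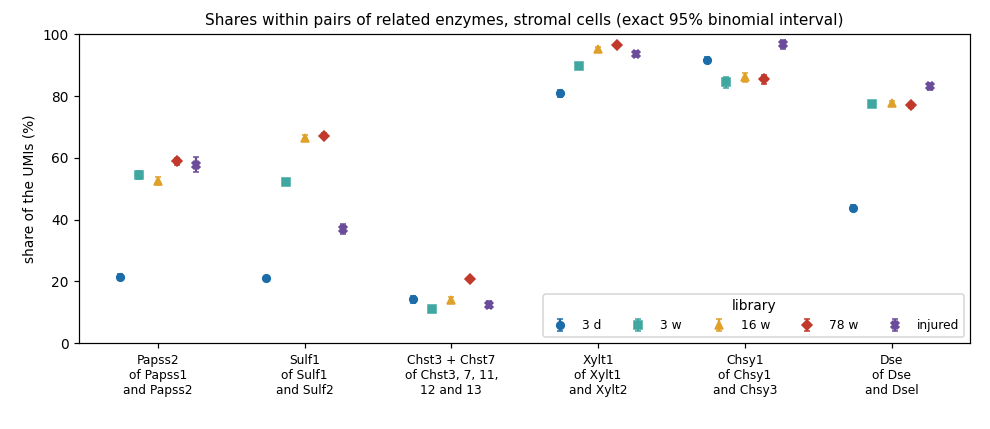
Share of the UMIs of related enzymes held by the first named, in percent, in stromal cells of each library, with exact 95% binomial intervals. Papss2, Sulf1 and Dse have their lowest share at 3 d, and Chst3 with Chst7 has its highest share, 20.7%, at 78 w.

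Synovial lining cells, the fibroblasts that face the joint cavity and secrete lubricin and hyaluronan, were set against stromal cells within each library. A member was called when the median of the 5 ratios passed 2-fold with the same direction in all libraries. Measured were 9453 genes and 34 members, those with a mean of at least 5 CPM over both classes. Of these 34, 2 were higher, against 6.62% of all genes, and 1 was lower, against 5.54%. The 2 include Chst7, whose stromal mean was under 5 CPM. It was measured here only through its lining level, the side on which it was called, and so had to be higher there. The lining sums rest on 69 to 325 cells in a library, so that single ratios carry wide intervals.

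Ugdh was the member with the largest difference. Its level in lining cells was 483 CPM at 3 d, 1134 at 3 w, 619 at 16 w, 677 at 78 w and 678 after injury, above the stromal level in every library. The ratios to stromal cells were 5.83 (5.51 to 6.17), 10.1 (9.5 to 10.7), 4.07 (3.79 to 4.36), 3.08 (2.97 to 3.2) and 4.33 (3.93 to 4.77). Chst7 was at 13.6, 9.26, 17.3, 19.5 and 8.79 CPM in lining cells, with a median ratio of 3.02, on 6 to 90 UMIs. Its interval at 3 w, 0.856 to 3.33, included 1. Ust was lower in lining cells, with 6.65, 14.8, 10.1, 10.8 and 24.9 CPM and a median ratio of 0.464, and its intervals at 3 d (0.491 to 1.25) and after injury (0.396 to 1.1) included 1. With equal weight per cell its median was 0.507, short of 2-fold.

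Several members differed in direction between libraries. Xylt1 was at 2.61 times its stromal level at 3 d (2.33 to 2.92) and at 0.596 times at 78 w (0.533 to 0.664). Csgalnact1 was at 0.148 times at 3 d (0.0593 to 0.305) and at 1.98 times after injury (1.4 to 2.73). Chst15 was at 3.99 times at 3 d (3.12 to 5.04), 4.03 times at 3 w (2.97 to 5.37), 1.83 at 16 w and 1.31 at 78 w. After injury it was at 0.884, with an interval of 0.322 to 1.95 that included 1. Its median of 1.83 passed 2-fold under 2 alternatives. Chst12 was above its stromal level in all 5 libraries, with a median ratio of 1.7, and Ext1 below it in all 5, with a median of 0.634, both inside 2-fold, and the intervals of Chst12 after injury and of Ext1 at 3 d and after injury included 1.

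Between stages, lining cells had a Sulf2 level of 326 CPM at 3 d and 40.8 to 62.9 CPM in the other libraries, and the 78 w to 3 d ratio was 0.133 (0.114 to 0.155). Sulf1 was at 56.2 CPM at 3 d and 121 CPM at 78 w, a ratio of 2.16 (1.82 to 2.58). Chst11 had a ratio of 2.93 (1.98 to 4.48) and Csgalnact1 of 13.6 (6.41 to 34.3), the latter from 7 UMIs at 3 d. Csgalnact2, Chst12 and Dse, all higher at 78 w in stromal cells, had lining ratios of 1.12 (0.932 to 1.36), 1.15 (0.98 to 1.36) and 1.14 (0.927 to 1.4). Chst3 had one of 0.956 (0.496 to 1.89). The summed chondroitin and dermatan members were at 468 CPM at 3 d and 503 CPM at 78 w in lining cells, and the chondroitin to heparan ratio was 0.759 (0.708 to 0.814) and 1.44 (1.35 to 1.53). How far the low marker sum of the lining cluster at 3 d takes part in these ratios was not tested.

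**Figure D5:**
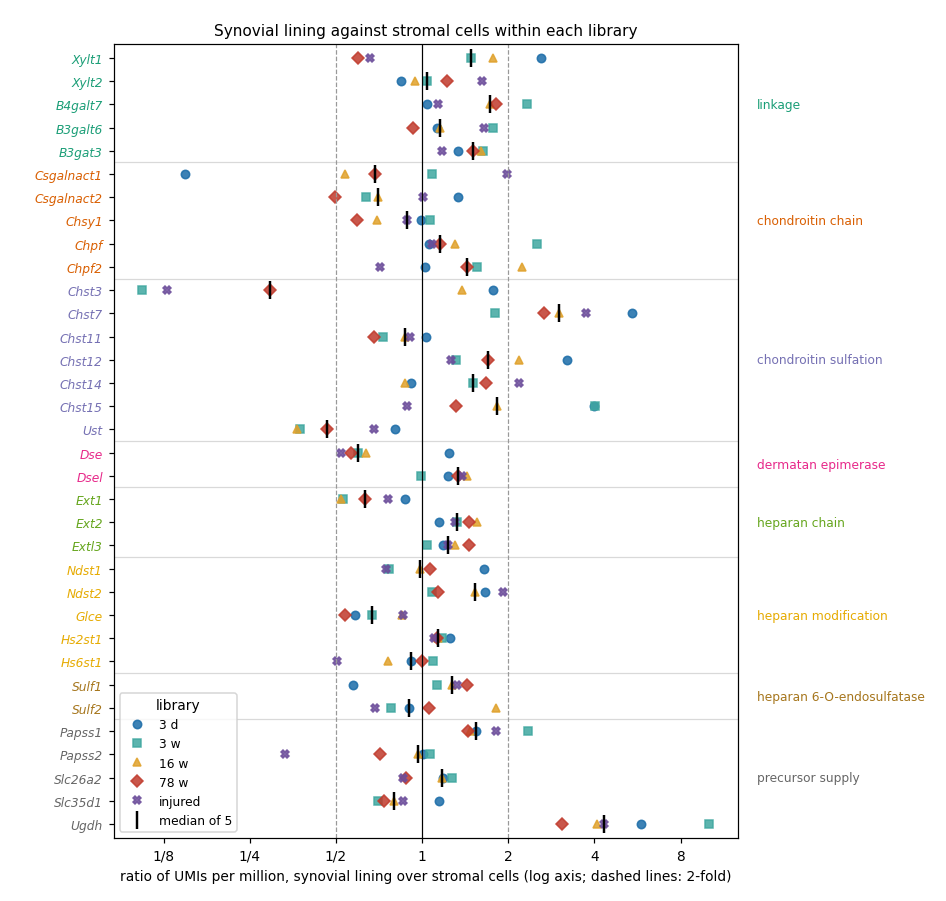
Ratio of CPM in synovial lining cells to stromal cells within each of the 5 libraries for 34 members, on a log axis, with the median as a black tick. All 5 points of Ugdh lie right of 3 and all 5 points of Ust lie left of 1.

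Other cell classes of the disc held some members at levels of their own. Summed fibroblast markers were at 3990 to 13259 CPM in macrophage-like, 6019 to 11340 CPM in endothelial-like and 7758 to 18864 CPM in mural-like cells. In stromal cells they were at 31735 to 57258 CPM, and their source in the other classes was not tested. Only a selection of the members above the stromal level in several libraries is described. The classes held 366 to 1054 endothelial-like, 113 to 467 macrophage-like and 115 to 351 mural-like cells in a library. Chst15 was at 94.3 CPM in endothelial-like cells at 3 d, 38.0 at 3 w, 66.8 at 16 w, 67.2 at 78 w and 38.0 after injury, above stromal cells in all 5 libraries. Chst7 was at 11.6 to 24.4 CPM and Ndst1 at 30.9 to 79.7 CPM in endothelial-like cells, also above stromal cells in each library. Sulf2 in macrophage-like cells was at 119, 71.1, 112, 116 and 115 CPM, below the stromal level at 3 d and above it in the 4 other libraries. Ugdh reached 378 CPM at 3 w and 447 CPM after injury in mural-like cells, against 112 and 157 CPM in stromal cells, and was below the stromal level at 3 d and 78 w. Hs2st1 was at 30.4 to 60.9 CPM in mural-like cells, above stromal cells in each library. After injury it rested on 10 UMIs, with an interval of 14.6 to 55.9 CPM that included the stromal level.

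The rest of the pathway was read from lists of other genes. Of the 13 other precursor genes 12 were measured in stromal cells, and 3 were higher and 1 lower at 78 w than at 3 d. These counts stand against 14.5% of all genes higher and 12.8% lower. Uap1 and Gfpt2, which make amino sugar donors, were at 62.3 and 21.8 CPM at 3 d and at 371 and 182 CPM at 78 w, with ratios of 5.95 (5.79 to 6.11) and 8.37 (8.01 to 8.76), and Ugp2, which makes the substrate of Ugdh, was at 145 and 191 CPM. In lining cells 5 of 12 were higher than in stromal cells, against 6.62% of all genes, among them Ugp2 with a median ratio of 4.14, Gfpt2 with 3.8 and Uap1 with 3.06. Among 7 genes of hyaluronan, 6 were measured and 3 were higher, against 14.5% of all genes, and 1 lower, against 12.8%, at 78 w. The synthase Has1 was at 6.76, 147, 97.0 and 198 CPM at the 4 stages and at 43.9 CPM after injury, and in lining cells it was at 41.2 CPM at 3 d and 374 to 1528 CPM in the others. Its median ratio of lining to stromal cells was 6.1. Tmem2 and Cemip, which take part in hyaluronan breakdown, were at 23.0 and 4.89 CPM at 3 d and 79.5 and 23.2 CPM at 78 w, and Has2 was at 20.4 and 16.3 CPM.

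Core proteins differed gene by gene. Of 9 core proteins for chondroitin or dermatan sulfate 6 were measured, 3 higher and 1 lower at 78 w, against 14.5% and 12.8% of all genes. Decorin, Dcn, was at 3177 CPM at 3 d and 26286 CPM at 78 w, a ratio of 8.27 (8.24 to 8.3), biglycan, Bgn, was at 3176 and 4056 CPM, and versican, Vcan, was at 493 and 75.4 CPM. Srgn was at 3.59 and 39.7 CPM and Cspg4 at 34.5 and 165 CPM. Macrophage markers, which summed to 116 CPM in stromal cells at 78 w, were also highest in that library, and their part in it was not tested. Of 14 core proteins for heparan sulfate 12 were measured, 2 higher and 4 lower, where 14.5% and 12.8% of all genes were. Sdc4, a cell surface syndecan, was at 225 and 2587 CPM, with a ratio of 11.5 (11.3 to 11.7), Gpc3, a glypican, was at 279 and 7.99 CPM, with a ratio of 0.0286 (0.0266 to 0.0308), and Hspg2 and Sdc2 were at 166 and 117 CPM at 3 d and 94.2 and 121 CPM at 78 w. Gpc6 was at 117 and 27.9 CPM and Tgfbr3 at 37.8 and 103 CPM.

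Of 15 lysosomal genes that take chains apart, 13 were measured and 2 were lower, near the 12.8% of all genes, Galns from 15.8 to 6.42 CPM and Gusb from 45.2 to 20.2 CPM. Hexa was at 82.3 CPM at 3 d and 119 CPM at 78 w, and Ids at 22.9 and 44.6 CPM. The 13 other heparan genes had 3 measured members, of which Hs3st1 was higher, at 6.22 and 12.7 CPM, while Extl2 was at 16.6 and 11.9 CPM and Hs3st3b1 at 7.33 and 4.82 CPM. The other linkage genes were Pxylp1, lower with 23.8 and 8.52 CPM, and Fam20b, at 16.0 and 20.3 CPM. Of 7 genes of keratan sulfate 3 were measured and 2 were lower, against 12.8% of all genes, Chst2 from 29.5 to 4.49 CPM and B4galt4 from 10.0 to 4.71 CPM, while B4galt1 was at 106 and 57.6 CPM. Hs3st1 without the 78 w library, and B4galt4 without that of 3 d, had a mean under 5 CPM. Each was thus measured only through the library in which it was called high.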

How the data were processed

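Each of the 5 libraries came as 1 sparse matrix of UMI counts per gene and cell barcode, deposited as the authors' Cell Ranger output (version 3.1 and build mm10 per the submitters' notes, 4.0.0 in the file headers), in which every barcode held at least 500 UMIs. Cells were kept above 200 UMIs and up to a mitochondrial share of 30% (51688 cells). They were integrated with Seurat 5.3.0 in R 4.3.3 on 2000 variable features, without the 26 listed pathway genes among them, and clustered at a resolution of 0.2 on 30 dimensions, and clusters were named from marker lists. UMIs were then summed per library and class in Python 3.11.15 and given per 1e6 UMIs of the class (CPM). Intervals of ratios and shares were exact, from binomials (scipy 1.17.1), at 95%. A count of 0 was taken as 3 in the ratios used for calls and medians, and not in the intervals. No doublets were left out. The scripts were tested on simulated data.

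Members and gene lists were chosen with earlier results of these data known. Every member is accounted for, with values in each library for members with a mean of at least 25 CPM or a called difference. From other lists the 3 genes of highest mean and up to 2 called genes of largest ratio at 78 w against 3 d are named, and other genes behind counts of 5 or fewer were named after their values were seen. Of the genes so chosen, 1 is not reported here. Promoter windows came from RefSeq.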

Additional observations from a re-analysis of the deposited data

How the results depend on the processing

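Neither the chondroitin and dermatan sum nor the heparan sum changed its direction between 78 w and 3 d under the alternatives run. With a mean of at least 20 CPM, members lower at 3 w than at 3 d were 4, members lower at 78 w than at 3 d 2, and members higher in lining cells 1. With at least 1 CPM, 1 member was lower at 78 w than at 16 w, and after injury 1 was higher and 3 were lower. At 1.5-fold, 15 members were lower at 3 w than at 3 d, 5 higher and 3 lower at 16 w than at 3 w, 1 higher at 78 w than at 16 w, 1 higher and 2 lower after injury, and 7 higher and 2 lower in lining cells. After injury 0 members were lower with median-ratio scaling, 2 with the total without abundant genes, and with equal weight per stromal cluster 0 were lower and 1 was higher, where Ndst1 lost its call and Sulf2 gained one. Equal weight per cluster also moved calls between stages. At 78 w against 3 d it left Xylt1, Chst12 and Hs2st1 short of 2-fold. At 3 w against 3 d it did so for Csgalnact1, Chst3, Chst11 and Chpf, while Ugdh and B3galt6 passed. At 16 w against 3 w Chst11 fell short. With equal weight per cell 0 members were lower in lining cells. The shares of all genes under these alternatives are not given here. The counts therefore show only how far calls of members moved, and not an excess over all genes. The chondroitin and dermatan sum, at 1.66 for 78 w over 3 d, was 1.58 with equal weight per cell, 1.71 with median-ratio scaling, 1.53 without abundant genes, 1.46 with equal weight per cluster and 1.73 without integration. The heparan sum, at 0.456, was 0.445, 0.471, 0.423, 0.502 and 0.427 in that order. The cause of these shifts was not tested. A stricter cell filter, a resolution of 0.5 and leaving out the cells of highest doublet score, the last chosen after seeing the data, moved no count or sum by that much. Leaving out called doublets was not run, because the caller marked 0 to 2 cells in a library. Lining results could not be computed without integration, since the lining had no cluster of its own at 3 d. Without integration the cluster named as lining held 1 cell at 3 d, 99 at 3 w, 1419 at 16 w, 2068 at 78 w and 281 after injury. With integration it held 325, 69, 85, 277 and 180 cells in that order. How far the lining ratios depend on where this class ends was not tested.

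No paired analysis was possible because each condition had 1 library. For the same reason no difference has a replicate check, and age, sex, injury, preparation and sequencing depth cannot be told apart. Whether genotype, strain or tamoxifen also set the injured library apart is not known, since its labels and the study's account differ. The injured library had the fewest UMIs, and the lining sums rest on few cells.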
